A study of Mus musculus with 9 samples.

Results

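The genes described here are the 3 mouse Runx genes, Runx1, Runx2 and Runx3, with Cbfb and Sp7. They were chosen by name, and all 5 were found among the 25860 genes of the count table and among the 13712 genes with enough reads to test. Gene expression was measured by RNA sequencing of cultured calvarial cells, which come from the flat bones of the skull roof of newborn mice. Of 9 libraries, 5 carry the label IRE1KO and 4 the label WT. Both groups are described in the study's design text as Osx1-Cre cells, sorted by flow cytometry, cultured in 10% serum and collected when 90% confluent. A library is a pool of cells from 3 to 5 pups, 2 to 4 days old. Osx1-Cre is a transgene in which the promoter of Sp7 (also called osterix or Osx) drives Cre recombinase. IRE1, encoded by Ern1, is the endoplasmic reticulum stress sensor named in the IRE1KO label. The labels do not state the strain, the Ern1 allele or whether WT pups carry the Cre transgene in the same dose, so every IRE1KO over WT value, that of Sp7 included, could hold a difference in Cre as well. The comparison asks how the transcription factors that set osteoblast fate stand in cells labelled as lacking IRE1.

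RUNX proteins are transcription factors that bind DNA through the Runt domain, each as a heterodimer with CBFB, which does not itself touch DNA but raises the affinity of its partner and protects it from degradation. Runx2 is the master gene of the osteoblast lineage, and mice without it form no mineralized bone. Runx1 is best known from blood stem cell formation and is also expressed in skeletal progenitors, while Runx3 is known from T cells, sensory neurons and, together with Runx2, from cartilage maturation. Sp7 encodes osterix, a zinc finger factor that acts downstream of Runx2 and is needed for the step from preosteoblast to osteoblast.

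Runx genes are each read from a distal and a proximal promoter, and ACCACA, or TGTGGT on the other strand, is a core sequence that RUNX proteins recognise. Only this spelling was searched for, so variants of it are neither marked nor counted. The windows from 250 bases before to 50 bases after the start of transcription, taken from RefSeq on GRCm38.p6, are shown because the family shares a feature in them. Windows were matched for 4 of the 5 genes, and capitals mark each ACCACA, read in the direction of the gene.
Runx1 distal promoter, chr16:92826025-92826324, minus strand: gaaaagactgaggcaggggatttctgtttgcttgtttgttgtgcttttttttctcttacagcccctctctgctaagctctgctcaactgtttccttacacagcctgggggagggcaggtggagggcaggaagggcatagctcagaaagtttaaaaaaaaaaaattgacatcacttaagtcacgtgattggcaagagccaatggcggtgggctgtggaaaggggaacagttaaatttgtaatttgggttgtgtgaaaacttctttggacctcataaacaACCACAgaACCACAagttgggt
Runx2 promoter, chr17:44814578-44814877, minus strand: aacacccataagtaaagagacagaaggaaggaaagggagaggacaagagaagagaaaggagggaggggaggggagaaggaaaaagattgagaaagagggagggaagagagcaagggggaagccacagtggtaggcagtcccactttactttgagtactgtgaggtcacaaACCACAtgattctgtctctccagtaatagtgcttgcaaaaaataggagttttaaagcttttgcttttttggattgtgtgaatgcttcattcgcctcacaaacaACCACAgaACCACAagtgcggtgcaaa
Runx3 distal promoter, chr4:135120395-135120694, plus strand: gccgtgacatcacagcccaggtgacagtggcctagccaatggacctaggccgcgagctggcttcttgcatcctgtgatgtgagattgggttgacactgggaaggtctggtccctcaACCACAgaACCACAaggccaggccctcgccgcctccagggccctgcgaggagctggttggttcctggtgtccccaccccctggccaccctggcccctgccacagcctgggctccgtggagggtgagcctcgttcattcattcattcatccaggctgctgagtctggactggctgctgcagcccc
Each of these 3 windows held a pair of the motif with 2 bases between its copies, inside the 18 letters caACCACAgaACCACAag that all of them share. The pair began at base 29 after the start in Runx1, at base 24 after it in Runx2 and at base -134 in Runx3, where bases before the start count backwards from -1. Runx2 held another copy at base -80. On either strand, 16.8% of all 32817 windows of 300 bases held at least 1 copy of the 6-letter motif and 1.81% held 2 or more. In the same orientation, 2 copies of the motif with any 2 bases between them occurred in 7 of the 32817 windows (0.0213%). The pair ACCACAGAACCACA, whose letters were read from the 3 windows shown, occurred in 4 of the 32817 windows, which cover 3 places in the genome. Those places were the 3 shown, the other window being that of Gm16225, a noncoding gene on the opposite strand whose window overlaps the Runx3 one. The proximal windows of Runx1 and Runx3 and the window of Cbfb held no copy. The deposited value is 1 count per gene, so the distal and proximal starts of a gene are not separated in anything that follows.

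Total counts ranged from 18784636 to 22028075 in IRE1KO and from 19135642 to 19791137 in WT libraries. WT library 4 stood apart from the rest, with a score of 56.7 on a first principal component (45.9% of variance) where the other 8 libraries scored -23.4 to 15.1. Results of the 5 members are therefore also given without that library where it changes them. Ern1 averaged 53.1 ± 2.33 CPM, the read count scaled to library size, in the 5 IRE1KO libraries and 47.2 ± 5.68 CPM in the 4 WT libraries (SD). Its log2 fold change of 0.17 ± 0.076 SE did not pass (adjusted p = 0.306, edgeR), so no loss of Ern1 reads was seen in IRE1KO. A count over the whole gene does not show single exons and the Ern1 allele is not stated, so the loss of IRE1 was not checked by these counts. Collagen genes of osteoblasts and fibroblasts were abundant, while Bglap, which defines mature osteoblasts, was at 0.100 ± 0.0784 CPM in IRE1KO, against 0.0387 ± 0.0492 CPM in WT.

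Runx3 was the member that rose. IRE1KO libraries 1 to 5 had 11.3, 10.1, 13.2, 12.8 and 13.8 CPM, against 8.27, 8.11, 7.07 and 7.47 CPM in WT libraries 1 to 4. All 5 IRE1KO libraries lay above the highest WT library, with a gap of 1.81 CPM between the nearest of them. The IRE1KO mean was 12.2 ± 1.53 CPM (SD, n = 5) and the WT mean 7.73 ± 0.559 CPM (SD, n = 4). The log2 fold change was 0.66 ± 0.11 SE, a 1.58-fold difference with a 95% interval of 1.34 to 1.86 (adjusted p = 0.0436 over all tested genes, Benjamini-Hochberg, from the quasi-likelihood test of edgeR). By the same test 35 of 13712 genes were higher in IRE1KO (0.255%) and 87 differed in either direction (0.634%), and 0.379% were lower. Of the 5 members, 1 was called and 4 were not. Groups without overlap in CPM, as for Runx3 alone among the members, were found for 6.93% of tested genes, 3.65% with IRE1KO higher.

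The counts behind Runx3 were modest. They were 197 to 288 reads in IRE1KO and 140 to 162 reads in WT. The exact Poisson 95% interval was 170.4 to 226.5 reads for the lowest IRE1KO library and 138.0 to 189.0 reads for the highest WT library, so the nearest pair overlaps within counting error. The fold change was positive in each of the 9 fits that left out 1 library, at 0.61 to 0.72 on the log2 scale, but the adjusted p passed in 2 of them. Those were the fits without WT library 1 (adjusted p = 0.0139) and without WT library 4 (adjusted p = 0.0263), and in the other 7 it was 0.0664 to 0.141, while the unadjusted p ranged from 3.66e-05 to 6.03e-04 over all 9 (edgeR). The share of all tested genes called moved as well: it was 0.0439%, 0.0146%, 0.0585%, 0.0587% and 0.022% without IRE1KO libraries 1 to 5, and 8.63%, 0.0508%, 0.0218% and 2.9% without WT libraries 1 to 4. Across tools, Runx3 passed in DESeq2, which called 4.14% of genes, with library totals (0.335%), without robust estimation (0.7%) and with every gene that had a count (0.253%), and it did not pass in limma voom (0.117%).

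**Figure D1:**
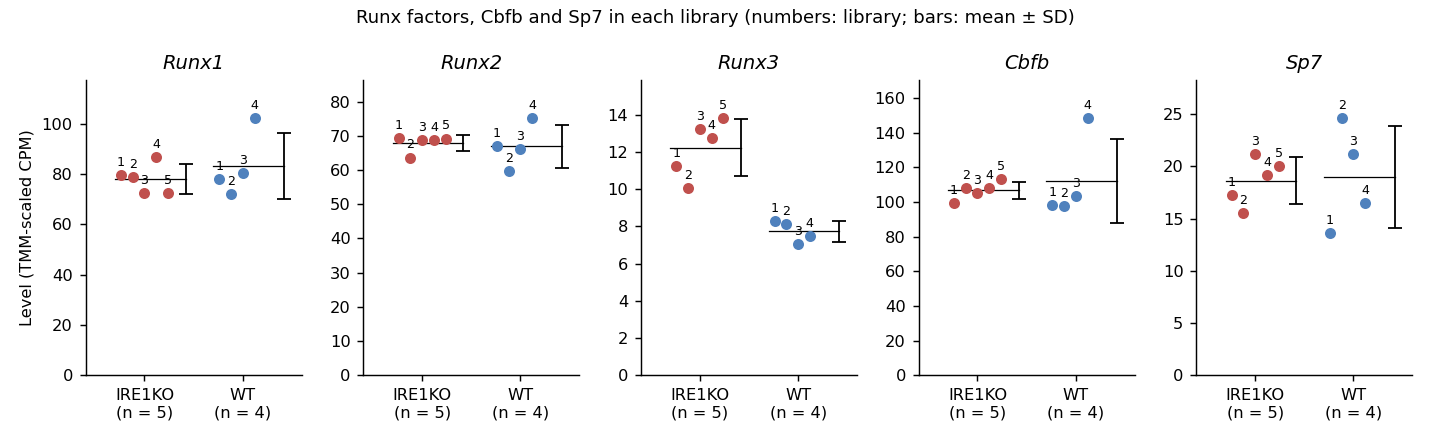
Level of each gene in every library, in TMM-scaled CPM on axes that start at 0, with IRE1KO libraries on the left and WT libraries on the right of each panel; numbers name the library and bars give mean ± SD. The 5 IRE1KO libraries sit above the 4 WT libraries for Runx3, while the groups overlap for the other 4 genes, and WT library 4 stands highest for Runx1, Runx2 and Cbfb.

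Runx2, the factor on which the osteoblast lineage depends, was level between the groups. IRE1KO libraries 1 to 5 had 69.4, 63.6, 68.8, 68.7 and 69.2 CPM, and WT libraries 1 to 4 had 66.9, 59.8, 66.0 and 75.1 CPM. The IRE1KO values all lay inside the WT range. The log2 fold change was 0.021 ± 0.062 SE, with a 95% interval of -0.12 to 0.16 (adjusted p = 0.898, edgeR), so that a difference beyond 0.921-fold to 1.12-fold lies outside the interval. Of the 5 genes it had the narrowest interval.

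Runx1 did not pass either. IRE1KO libraries 1 to 5 had 79.7, 78.8, 72.6, 86.7 and 72.5 CPM, against 77.9, 72.1, 80.5 and 102.2 CPM in WT libraries 1 to 4. WT library 4 was the highest and the groups overlapped. The log2 fold change was -0.092 ± 0.10 SE (95% interval -0.32 to 0.13, adjusted p = 0.679, edgeR), and it was 0.022 without WT library 4.

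Cbfb, the partner that all RUNX proteins share, had the highest CPM of the 5 genes. Its level was 99.3, 107.9, 105.1, 108.3 and 113.1 CPM in IRE1KO libraries 1 to 5, and 98.1, 97.9, 103.6 and 148.3 CPM in WT libraries 1 to 4. WT library 4 stood far above every other library. The log2 fold change was -0.069 ± 0.12 SE (95% interval -0.34 to 0.20, adjusted p = 0.810, edgeR), and without WT library 4 it was 0.095 (adjusted p = 0.291, edgeR), so its direction rests on that library.

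Sp7, the osterix gene, varied more between WT libraries than any other member. IRE1KO libraries 1 to 5 had 17.3, 15.6, 21.2, 19.1 and 19.996 CPM, against 13.6, 24.6, 21.2 and 16.5 CPM in WT libraries 1 to 4. The coefficient of variation was 11.97% in IRE1KO and 25.8% in WT, while counting error alone gives 4.88% to 5.74% in IRE1KO and 4.57% to 6.13% in WT. The log2 fold change was -0.024 ± 0.17 SE (adjusted p = 0.961, edgeR), and its 95% interval of -0.40 to 0.35 was the widest of the 5. That interval runs from 0.759-fold to 1.27-fold, so differences within it are not excluded for Sp7. The Cre transgene uses the Sp7 promoter, and the counts do not show whether any of its transcript was counted as Sp7.

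**Figure D2:**
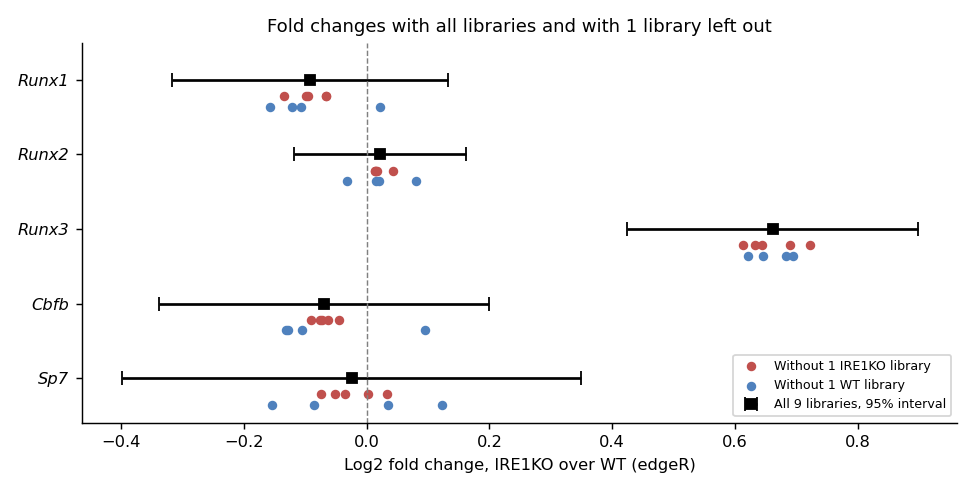
Log2 fold change of IRE1KO over WT for each gene, with the estimate from all 9 libraries (squares, 95% interval) and the estimates after leaving out 1 IRE1KO library (red) or 1 WT library (blue). The Runx3 estimates stay between 0.61 and 0.72, whereas those of the other 4 genes fall on both sides of 0.

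Levels of different genes were compared per length, as TPM, the read count divided by the exon length in GENCODE M21 and scaled to the same total in every library. In the mean over all libraries the order was Cbfb, Runx2, Runx1, Sp7 and Runx3. Cbfb was 3.63 to 4.30 times Runx2 in IRE1KO and 3.72 to 5.01 times Runx2 in WT libraries. Runx2 exceeded Runx1 per length in each library, by 1.08 to 1.30 times in IRE1KO and 1.00 to 1.17 times in WT, but the ranges of the 2 genes overlapped in WT. This order rests on the exon lengths used, 8837 bases for Runx2 and 12025 for Runx1, since by read counts Runx1 exceeded Runx2 in all 9 libraries, by 1.05 to 1.26 times in IRE1KO and 1.16 to 1.36 times in WT. Per length, Runx1 and Sp7 did not differ beyond their spread, with Runx1 the higher in 4 of 5 IRE1KO and 3 of 4 WT libraries. This too rests on the exon lengths, 12025 bases for Runx1 and 3398 for Sp7. Runx1 had 1366 to 1903 reads in IRE1KO and 1404 to 1955 in WT, against 304 to 420 and 266 to 479 for Sp7. Sp7 was 2.13 to 2.36 times Runx3 in IRE1KO and 2.42 to 4.46 times Runx3 in WT, so Runx3 was the lowest of the 5 in every library.

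Summed over the 3 Runx genes, the level was 70.2 ± 2.53 TPM (SD, n = 5) in IRE1KO, against 69.2 ± 7.99 TPM (SD, n = 4) in WT. Runx3 supplied 13.5%, 12.8%, 16.1%, 14.5% and 16.6% of that sum in IRE1KO libraries 1 to 5, against 10.5%, 11.3%, 9.08% and 8.08% in WT libraries 1 to 4. The groups did not overlap in this share, although Runx3 remained the minor member in both. The share draws on the same Runx3 counts as the comparison above, and its size depends on the exon lengths. By read counts it was 6.61% to 8.88% in IRE1KO and 4.05% to 5.79% in WT. Runx2 supplied 46.3% ± 1.26 in IRE1KO and 47.3% ± 1.01 in WT, and Runx1 39.0% ± 2.47 in IRE1KO and 43.0% ± 2.12 in WT. Cbfb stood at 1.71 to 1.97 times the summed Runx level in IRE1KO and 1.79 to 2.30 times in WT. Per length it thus exceeded all 3 partners together in each library. This excess rests on the exon lengths used. By read counts Cbfb was below the summed Runx genes, at 0.619 to 0.727 times in IRE1KO and 0.640 to 0.803 times in WT.

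**Figure D3:**
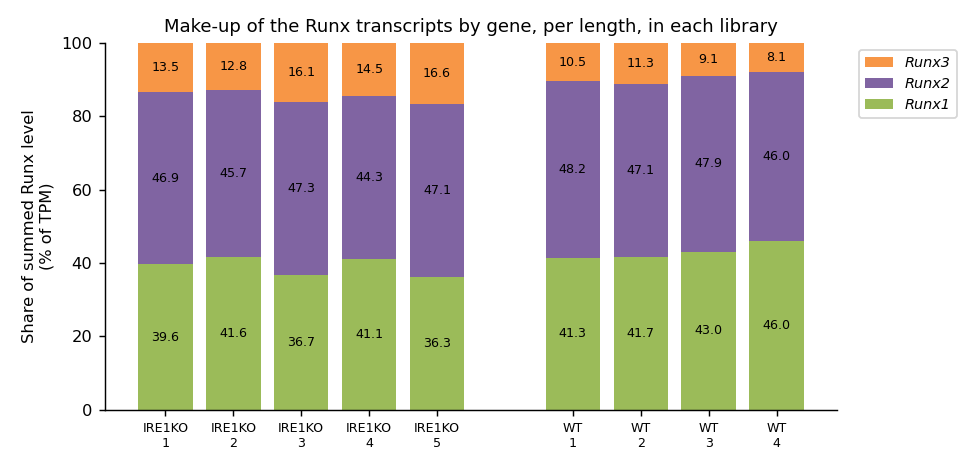
Share of the summed Runx level, in percent of TPM, held by Runx1, Runx2 and Runx3 in each library, with IRE1KO libraries on the left. The Runx3 share is 12.8% to 16.6% in IRE1KO and 8.08% to 11.3% in WT.

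Whether Runx3 moved apart from its relatives was tested on the ratio of read counts within each library, which needs no scaling between libraries. The log2 ratio of Runx3 over Runx2 was -2.48 ± 0.15 (SD, n = 5) in IRE1KO and -3.11 ± 0.20 (SD, n = 4) in WT, a difference of 0.63 (exact permutation test, two-sided, p = 0.0159, adjusted p = 0.0397 over 5 ratios). For Runx3 over Runx1 it was -2.68 ± 0.25 in IRE1KO and -3.41 ± 0.28 in WT, a difference of 0.74 with the same exact permutation p of 0.0159 and adjusted p of 0.0397. A p of 0.0159 is the smallest that 5 against 4 libraries allow, and the groups did not overlap in either ratio. Both ratios use the Runx3 counts already compared above, so they are not separate evidence of its rise. Their adjusted p also depends on both of them, with the same Runx3 counts, reaching that smallest p. The other 3 ratios overlapped between groups: the difference was -0.11 for Runx1 over Runx2 (exact permutation p = 0.222), -0.021 for Sp7 over Runx2 (exact permutation p = 0.937) and -0.058 for Cbfb over summed Runx (exact permutation p = 0.556).

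**Figure D4:**
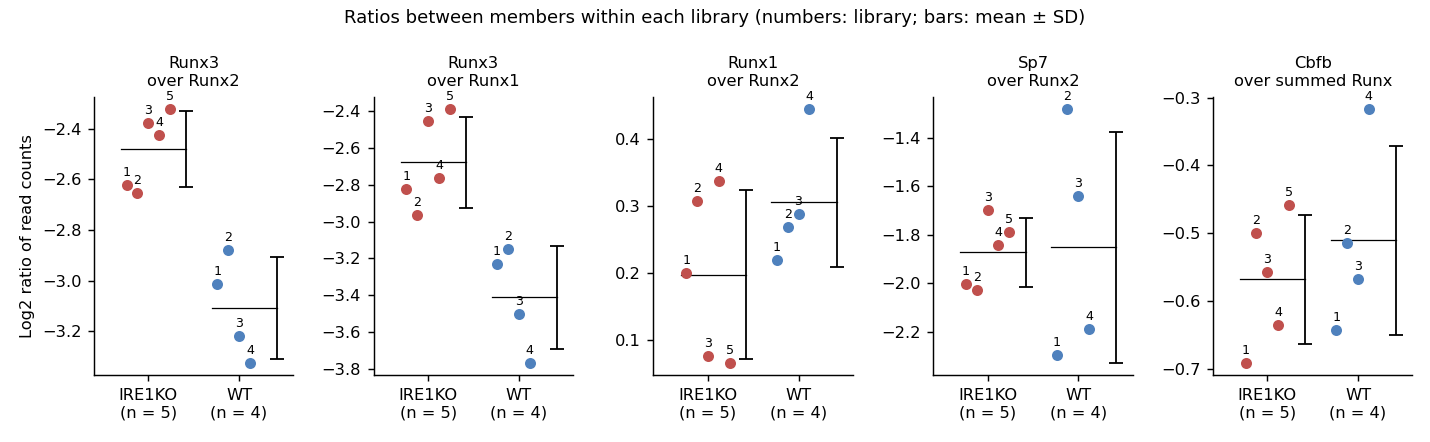
Log2 ratio of read counts between pairs of genes within each library, IRE1KO on the left of each panel, with mean ± SD; the axes do not start at 0. Runx3 over Runx2 spans -2.65 to -2.32 in IRE1KO and -3.32 to -2.88 in WT, and Sp7 over Runx2 is spread most widely in WT.

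Among 10489 tested genes averaging 5 CPM or more, the genes whose log2 CPM over the 9 libraries was most like that of Runx3 were Urb1 (Pearson r = 0.960), Homer2 (r = 0.952), which encodes a scaffold protein, and Ablim1 (r = 0.940), which encodes an actin-binding protein. These values share the 9 libraries and partly the difference between the groups, since r of the deviations from the group means was 0.874, 0.754 and 0.689. Homer2 was at 14.2 ± 1.33 CPM in IRE1KO, against 9.95 ± 1.14 CPM in WT without passing (adjusted p = 0.0605, edgeR). The genes most like Cbfb were Slc35e1 (r = 0.991), Adcy4 (r = 0.984) and Tnik (r = 0.982), and those most like Runx1 were Ppp1r3b (r = 0.976), Rcsd1 (r = 0.973) and Pygb (r = 0.967), and in both sets WT library 4 is the highest of the 9 points of the member. Runx2 was most like Pigo (r = 0.976), Zfp141 (r = 0.949) and Snrnp40 (r = 0.925), and Sp7 most like Elfn1 (r = 0.926), Sgcd (r = 0.910) and Fv1 (r = 0.892).

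On GRCm38, Runx3 (ENSMUSG00000070691) spans chr4:135120652-135177990 on the plus strand, Runx2 (ENSMUSG00000039153) chr17:44495987-44814797 and Runx1 (ENSMUSG00000022952) chr16:92601466-92826149, both on the minus strand. Cbfb (ENSMUSG00000031885) spans chr8:105170674-105217989 on the plus strand and Sp7 (ENSMUSG00000060284) chr15:102356606-102367182 on the minus strand. None of them shares chromosome 11 with Ern1. The nearest tested genes on either side of Runx3 did not pass: Syf2 had a log2 fold change of 0.088 ± 0.053 SE (adjusted p = 0.434, edgeR) and Clic4, 35.98 kb away, of 0.043 ± 0.058 SE (adjusted p = 0.749, edgeR). The annotated gene on the other strand inside Runx3, Gm16224, was near 0 in both groups, at 0.00912 CPM in IRE1KO. Runx2 is overlapped on the other strand by Supt3h (Supt3 in the annotation), over 37646 bases, and by Gm10497 (Runx2os1). Supt3h was at 15.3 ± 1.08 CPM in IRE1KO, against 16.3 ± 2.01 CPM in WT (adjusted p = 0.639, edgeR) and Gm10497 at 1.73 ± 0.367 CPM in IRE1KO, against 1.55 ± 0.243 CPM in WT (adjusted p = 0.728, edgeR). Whether the counting used strand is not stated in the labels, and reads of such pairs could be shared. The tested neighbours of the other members, which were Rcan1 and Setd4 for Runx1, Enpp4 and Cdc5l for Runx2, Ces2g and D230025D16Rik for Cbfb and Aaas for Sp7, had adjusted p-values of 0.366 to 0.966 in edgeR. Sp1, a relative of Sp7 in the SP family, is its nearest tested neighbour on one side, 39.0 kb away, and had a log2 fold change of -0.11 ± 0.063 SE (adjusted p = 0.394, edgeR).

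Of the cofactors that RUNX proteins recruit, none of 15 tested corepressors and none of 12 tested coactivators passed. With 0.634% of all tested genes called, lists of this size would seldom hold a call, and non-passing does not show that they were unchanged. Their median log2 fold changes were -0.0093 and 0.0040, beside -0.0050 over all tested genes. At an unadjusted p under 0.05, 1 corepressor and 2 coactivators were found in the same edgeR test, against 16.5% of all tested genes. Among corepressors the smallest p belonged to Hdac5, a histone deacetylase, at 64.3 ± 3.30 CPM in IRE1KO, against 75.6 ± 5.75 CPM in WT (adjusted p = 0.117, edgeR), and to Tle2, a Groucho-type corepressor, at 18.2 ± 1.84 CPM in IRE1KO, against 23.2 ± 6.15 CPM in WT. Among coactivators they were Med1, a Mediator subunit, at 103.8 ± 3.41 CPM in IRE1KO, against 92.5 ± 2.03 CPM in WT (adjusted p = 0.0774, edgeR), and the arginine methyltransferase gene Prmt1, at 157.8 ± 3.24 CPM in IRE1KO, against 143.0 ± 12.1 CPM in WT. The groups did not overlap for Med1 or Prmt1, as for 6.93% of all tested genes, and they overlapped for Hdac5 and Tle2.

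Of 22 tested partners and modulators of RUNX2, 1 rose and 21 did not pass, against 0.255% of all tested genes that rose. The median log2 fold change was 0.040, and 7 of the 22 had an unadjusted p under 0.05 in edgeR, against 16.5% of all tested genes. The one that rose was Vdr, the vitamin D receptor, at 100.2 ± 9.34 CPM (SD, n = 5) in IRE1KO, against 72.9 ± 3.71 CPM (SD, n = 4) in WT. Its log2 fold change was 0.46 ± 0.071 SE (adjusted p = 0.0436, edgeR), and like Runx3 it passed without WT library 1 or WT library 4 and in none of the other 7 fits that left out 1 library, and not in limma voom (adjusted p = 0.0555). Of 11 tested genes of the SP family and partners of SP7, 1 rose, against 0.255% of all tested genes: Nfatc2, a calcineurin-activated factor, at 8.38 ± 0.580 CPM in IRE1KO, against 5.00 ± 0.976 CPM in WT, with a log2 fold change of 0.75 ± 0.13 SE (adjusted p = 0.0475, edgeR), which passed in 2 of the 9 such fits. Nfatc2 was just past the threshold, and its adjusted p was 0.0558 in limma voom, and 0.0501 with library totals and 0.05001 with every gene that had a count in edgeR. The list had a median of -0.024, and 4 of its 11 genes had an unadjusted p under 0.05 in edgeR. None of 16 tested genes of RUNX protein turnover and modification passed, against 0.634% of all tested genes, and 4 of the 16 had an unadjusted p under 0.05 in edgeR, against 16.5% of all tested genes (list median 0.020). Their smallest p belonged to Mapk3, which encodes the kinase ERK1, at 128.6 ± 4.15 CPM in IRE1KO, against 149.7 ± 10.0 CPM in WT (adjusted p = 0.0852, edgeR), and to the ubiquitin ligase gene Wwp1, at 115.6 ± 1.28 CPM in IRE1KO, against 124.0 ± 3.32 CPM in WT.

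**Figure D5:**
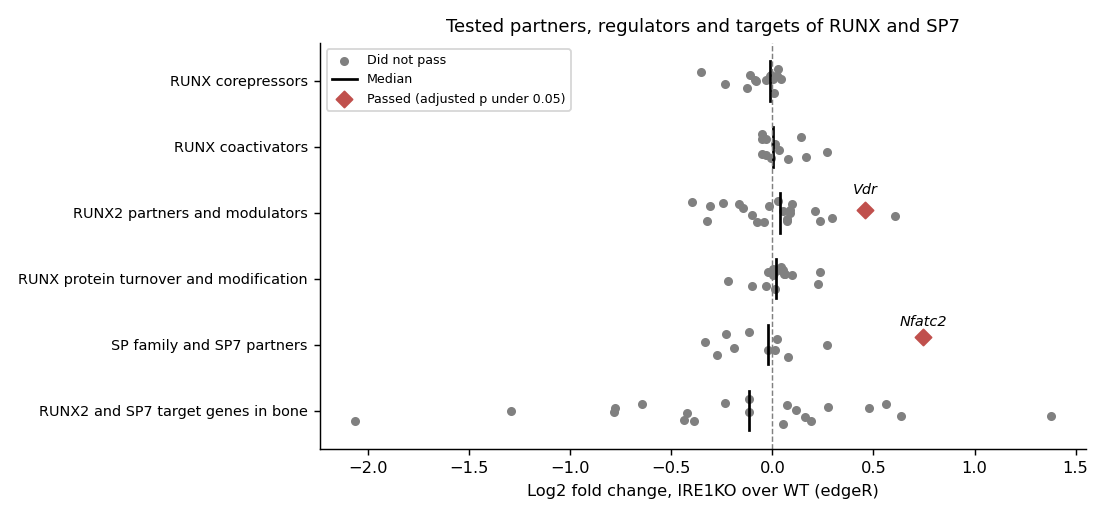
Log2 fold change of IRE1KO over WT for each tested gene of 6 lists of RUNX and SP7 partners, regulators and targets; the lists run down the page, black bars are list medians and diamonds mark genes past an adjusted p of 0.05. Vdr at 0.46 and Nfatc2 at 0.75 are the genes that passed, and the bone targets are spread most widely.

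Genes known as targets of RUNX2 or SP7 in bone did not pass in any of 21 tested cases, and 9 of the 21 had an unadjusted p under 0.05 in edgeR, against 16.5% of all tested genes. Their median log2 fold change was -0.12, with 10 of 21 positive. Of those 9, 6 were lower and 3 were higher in IRE1KO. The lower ones, named after their values were seen, were the matrix genes Ibsp and Spp1 at -2.06 and -0.78, Phex at -1.29, Panx3 at -0.65, Fgfr3 at -0.42 and Fgfr2 at -0.39 on the log2 scale, and the higher ones were Galnt3 at 0.64, Fmod at 0.56 and Tnfsf11 at 0.48. None of these passed over all tested genes (adjusted p = 0.110 to 0.256, edgeR). The smallest p belonged to Tnfsf11 and Fmod. Tnfsf11, which encodes RANKL, was at 14.3 ± 0.663 CPM in IRE1KO, against 10.3 ± 2.08 CPM in WT (adjusted p = 0.110, edgeR). Fmod, which encodes the matrix proteoglycan fibromodulin, was at 659.0 ± 124.5 CPM in IRE1KO, against 445.8 ± 56.4 CPM in WT (adjusted p = 0.110, edgeR). Ibsp, which encodes bone sialoprotein, was at 0.546 ± 0.390 CPM in IRE1KO, against 2.29 ± 1.29 CPM in WT. Spp1, which encodes osteopontin, was at 845.5 ± 106.5 CPM in IRE1KO, against 1448 ± 585.8 CPM in WT, and both overlapped between groups. Of the targets, 5 were too low to test, among them Bglap and Dmp1, which was at 0.281 ± 0.177 CPM in IRE1KO, against 1.26 ± 0.690 CPM in WT, and Sost had 0 counts in all 9 libraries.

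Markers of other cells that can express Runx genes were measured beside them. The 16 haematopoietic markers summed to 79.9 to 178.2 CPM in IRE1KO and 48.7 to 177.1 CPM in WT, so the groups overlapped. Of these, 11 could be tested and none passed, nor did any have an unadjusted p under 0.05 in edgeR. Fold changes were positive for 10 of the 11, with a median log2 fold change of 0.14 beside -0.0050 over all tested genes. The negative one was Mrc1, at -0.26. The T cell genes Cd3e and Cd3g and the erythroid genes Gata1 and Hba-a1 had 0 counts in every library, while the macrophage genes Csf1r and Mrc1 were at 27.1 ± 8.25 and 29.3 ± 9.23 CPM in IRE1KO and at 23.7 ± 10.3 and 35.2 ± 18.5 CPM in WT. Cd52, a leukocyte surface gene, was at 2.15 ± 0.826 CPM in IRE1KO, against 1.43 ± 0.766 CPM in WT. The 15 chondrocyte markers summed to 753.8 to 1477 CPM in IRE1KO and 1436 to 1513 CPM in WT. None of 14 tested passed and none had a positive fold change. Of the 14, 6 had an unadjusted p under 0.05 in edgeR, against 16.5% of all tested genes, and the median log2 fold change was -0.54. The most abundant was Col2a1, type II collagen, at 1089 ± 268.3 CPM in IRE1KO, against 1235 ± 92.3 CPM in WT, followed by Sox9 at 78.6 ± 5.72 CPM in IRE1KO, against 82.9 ± 31.4 CPM in WT. Lect1, chondromodulin, was at 0.301 ± 0.376 CPM in IRE1KO, against 3.36 ± 4.40 CPM in WT. Comp, a cartilage matrix gene, was at 23.6 ± 10.8 CPM in IRE1KO, against 62.8 ± 39.4 CPM in WT.

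The 9 glial and neural crest markers summed to 41.0 to 48.3 CPM in IRE1KO and 63.5 to 81.2 CPM in WT, without overlap, which 6.93% of single genes also showed, and none of 6 tested passed. Of those 6 markers, 5 had an unadjusted p under 0.05 in edgeR, against 16.5% of all tested genes. Their median log2 fold change was -2.12. Mbp, a myelin gene and the most abundant of them, went the other way, at 30.8 ± 2.12 CPM in IRE1KO, against 27.5 ± 14.1 CPM in WT, and its groups overlapped. Cdh19 was at 0.413 ± 0.279 CPM in IRE1KO, against 4.19 ± 2.65 CPM in WT (adjusted p = 0.0605, edgeR). S100b was at 8.99 ± 1.11 CPM in IRE1KO, against 17.1 ± 4.54 CPM in WT (adjusted p = 0.0605, edgeR). Adipocyte markers also stood lower, at 43.5 to 53.5 CPM summed in IRE1KO and 70.5 to 115.5 CPM in WT. All 4 tested had an unadjusted p under 0.05 in edgeR, against 16.5% of all tested genes, and their median log2 fold change was -1.27. Of the same 4, 3 were called lower, against 0.379% of all tested genes. These were Plin4, Lpl and Fabp4, which fell by 1.49, 1.09 and 1.44 on the log2 scale (adjusted p = 0.0416, 0.0475 and 0.0494, edgeR). Of 5 tested endothelial markers, 1 was called lower, against the same 0.379%. It was Pecam1, under 1 CPM in every library, which fell by 1.99 on the log2 scale (adjusted p = 0.0497, edgeR). Each of these 4 genes passed in 2 of the 9 fits that left out 1 library and none passed in limma voom (adjusted p = 0.0573 to 0.0612). Pecam1, Lpl and Fabp4, but not Plin4, also lost their calls with library totals (adjusted p = 0.0501 for each) and with every gene that had a count (0.0603, 0.0519 and 0.05001, edgeR). Pparg, the other abundant adipocyte marker, and the endothelial genes Tek and Erg did not pass (adjusted p = 0.149, 0.518 and 0.318, edgeR). None of 7 tested osteoblast markers passed, although 4 had an unadjusted p under 0.05 in edgeR, against 16.5% of all tested genes. Summed, the osteoblast markers overlapped, at 41423 to 46234 CPM in IRE1KO (median 44269) and 31222 to 58717 CPM in WT (median 34374). The overlap of the sum came from the highest WT library alone. That sum is mostly Col1a1, at 23304 ± 1126 CPM in IRE1KO, against 20395 ± 7219 CPM in WT, and Col1a2, at 15230.3 ± 742.2 CPM in IRE1KO, against 13628 ± 5341 CPM in WT, which fibroblasts express too. Sparc, a matrix gene, had a log2 fold change of 0.25, while Ibsp, Phex and Spp1 were on the lower side as given among the targets. The part of these cells in the Runx3 difference was not tested, and in bulk samples fewer cells of a type and less RNA per cell cannot be told apart.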

How the data were processed

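Libraries that mark the strand were prepared in 1 batch from poly(A) RNA and read on a NextSeq sequencer, per the labels' protocols. The authors deposited 1 table of raw gene counts, all integers. Per the submitters' processing notes, STAR, limma and mm10 were used. Neither the counter nor its annotation and strand option is given in the sources used here.

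Genes were kept with edgeR's filterByExpr (13712 of 25860), scaled by TMM and compared with the quasi-likelihood test of edgeR 4.0.16 in R 4.3.3, robust, with genotype as the sole term and Benjamini-Hochberg adjustment over all tested genes at 0.05. Fold changes are IRE1KO over WT. CPM values use TMM-scaled library sizes, and TPM values use the exon union per gene from GENCODE M21 (GRCm38), matched by Ensembl identifier for 24957 genes. The authors may have counted with another release, and exon unions overstate the length of genes with many isoforms. Count ratios had 0.5 added to each count and were tested by exact permutation in SciPy 1.17.1. Alternatives were DESeq2 1.42.0, limma 3.58.1 (voom), library totals, no filter, non-robust dispersion, the replicate number as a block and leaving out each library. The edgeR fit was tested on simulated counts and the permutation test on small made-up values. The simulated counts had the same dispersion in both groups, so the wider spread among WT libraries was not simulated. Count intervals are exact Poisson and cover counting error only. The labels name each pool of pups a biological replicate, so p-values measure the spread between pools.

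Members, 12 gene lists, cell markers and tests were chosen with earlier results of these data known. Named genes were the 5 members, Ern1, per list the passing genes or else the 2 of smallest p (for cell markers also the 2 of highest CPM), the 3 genes of most similar pattern per member, and neighbouring genes. A few further genes (Bglap, Dmp1, Sost, Galnt3, Spp1, Phex, Panx3, Fgfr2, Fgfr3 and markers at 0) were named after their values were seen. Replicate pairs differed by 1.92 to 10.0 times sampling noise in IRE1KO and by 15.4 to 112.3 times in WT, so no library was counted as a duplicate. The WT libraries thus differed more among themselves than the IRE1KO libraries did.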

Additional observations from a re-analysis of the deposited data

Results flagged for a closer look

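Among 20 sets of values searched (5 genes and 5 ratios, in IRE1KO and in WT), 2 held a library far from the rest of its group, where chance flags about 1 in 20. Cbfb was at 148.3 CPM in WT library 4, against 97.9 to 103.6 CPM in the other WT libraries. Runx2 was at 63.6 CPM in IRE1KO library 2, against 68.7 to 69.4 CPM in the other IRE1KO libraries.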

How the results depend on the processing

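The number of called genes was 87, and it was 568 with DESeq2, 16 with limma voom, 46 with library totals only, 45 with every gene that has a count, 0 with the replicate block (edgeR, where 1596 genes had an unadjusted p under 0.05) and 2 to 1192 without 1 library. Runx3 kept its direction under all 15 alternatives run. Its log2 fold change was 0.66 without passing in limma voom (adjusted p = 0.0573) and 0.61 with the replicate block (adjusted p = 0.239), and 0.61 to 0.72 without 1 library, while DESeq2 gave an adjusted p of 3.71e-05. Deviations of same-numbered libraries from their group means had r of 0.151, -0.204, -0.194 and 0.473 for numbers 1 to 4. The libraries numbered 4 thus deviated together in part, but the sign was not the same for all numbers. The numbers are not taken to pair the libraries, though pairing is not excluded. Without 1 library, the log2 fold change ranged from -0.16 to 0.022 for Runx1, -0.032 to 0.081 for Runx2, -0.13 to 0.095 for Cbfb and -0.15 to 0.12 for Sp7, and Sp7 was at 0.0034 in limma voom. The cause of these sign changes was not tested. The ratio of Runx3 over Runx2 differed by 0.56 to 0.70 without 1 library and by 0.59 with the replicate block, and that of Runx3 over Runx1 by 0.62 to 0.82 and by 0.66. These ratios then had exact permutation p-values of 0.0286 to 0.0357 and 0.125, the smallest that fewer libraries or 4 pairs allow, so that no adjusted p passed. The ranges were -0.17 to 0.17 for Sp7 over Runx2, -0.10 to 0.0068 for Cbfb over summed Runx and -0.14 to -0.061 for Runx1 over Runx2. Depth limits Runx3 most, with 140 to 288 reads per library.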

Other observations

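The 5 IRE1KO libraries were not alike in these genes. Libraries 1 and 2 had the lowest levels of the 5 for both Runx3 (11.3 and 10.1 CPM) and Sp7 (17.3 and 15.6 CPM), while libraries 3 and 5 had the lowest counts of Runx1 relative to Runx2, at log2 ratios of 0.077 and 0.066, against 0.20, 0.31 and 0.34 in libraries 1, 2 and 4. In WT, Sp7 relative to Runx2 was highest in library 2, at a log2 ratio of -1.28, and lowest in library 1, at -2.30. The WT libraries with the most and the least Sp7 thus differed in that ratio by more than the IRE1KO libraries did, whose log2 ratios ran from -2.03 to -1.70. These are values of single libraries, and no test was made between them.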
